A study of Rattus norvegicus with 12 samples.

Results

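Brain RNA of male Sprague-Dawley rats whose bile duct had been tied was compared with brain RNA of sham-operated rats. The comparison used 6 of the 12 libraries of the series: 3 labelled BDL (bile duct ligation, kept for 4 weeks, with no vector) and 3 labelled sham, all from rats of postnatal day 60. Both groups were chosen by their labels alone, and the 6 libraries were fitted by themselves. The other 6 libraries came from ligated rats injected with an adeno-associated virus (AAV) into the cisterna magna, 3 with AAV-GFP and 3 with AAV-VEGFC, the lymphatic growth factor. They enter only a side-by-side reading near the end. The sources used here do not name the promoter of either vector. The design text names 3 rats per group, but no label ties a library to an animal or to a shared day, so the p-values measure the spread between these libraries.

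Ligation of the bile duct blocks bile flow and leads to cholestasis, fibrosis and cirrhosis of the liver, and the operation is a standard model of hepatic encephalopathy. In that condition ammonia, bile acids and inflammatory signals reach the brain, where astrocytes are the main cells that bind ammonia, by joining it to glutamate to make glutamine. Neurons record recent firing through a set of immediate early genes: calcium and the ERK kinase cascade act on transcription factors already present (CREB at cAMP response elements, SRF at CArG boxes), which switch on factors such as Fos and Egr1 and then synaptic effectors such as Arc and Homer1.

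Read totals were 45241784, 45901035 and 49070624 in BDL 1 to 3 and 51031918, 48182228 and 41340987 in sham 1 to 3. Levels are given as CPM, the counts of a gene scaled to library size, computed here from the deposited counts. The design text calls the tissue middle brain. Slc17a7, which loads glutamate into vesicles of cortical neurons, ranged over 1510 to 1640 CPM in BDL and 1440 to 1460 CPM in sham libraries. Th, needed for dopamine synthesis, ranged over 0.692 to 1.72 CPM in BDL and 0.665 to 1.36 CPM in sham. The dopamine transporter gene Slc6a3 had 3 counts in all in BDL and 3 in sham. The defining markers of midbrain dopamine neurons were therefore near 0 in both groups. A pair of libraries stood apart. BDL 2 held more of the 24 meningeal and fibroblast markers (summed level 1003 CPM, against 504 and 583 CPM in BDL 1 and 3 and 436 to 553 CPM in sham) and more ribosomal RNA (0.333% of reads, against 0.147% to 0.204% in the other 5). Sham 2 held more of the 18 choroid plexus markers (summed level 714 CPM, against 237 to 262 CPM in BDL and 231 and 253 CPM in sham 1 and 3). Striatal markers varied inside both groups, from 1109 to 1657 CPM in BDL and from 1139 to 2086 CPM in sham for the sum of 19. The part of these differences in the results below was not tested, but counts without BDL 2 and sham 2 are given for all genes and for some lists.

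Of 12612 genes tested, 332 (2.63%) passed an adjusted p under 0.05. These are edgeR's quasi-likelihood test values, adjusted after Benjamini and Hochberg. The fall side was the longer: 238 genes (1.89%) were lower in BDL brains and 94 (0.745%) were higher. Most shifts were small, since 193 of the lower and 59 of the higher genes differed by less than 1.5-fold, and 16 lower and 25 higher genes by at least 2-fold. The median log2 fold change was -0.37 among the lower genes, 0.42 among the higher genes and 0.00 over all genes tested. In each of the 332 genes the 3 BDL libraries lay on one side of the 3 sham libraries, which was also so for 25.3% of all genes tested (11.7% with BDL higher, 13.6% with BDL lower). The first principal component held 31.9% of the variance and parted the groups, with BDL between -23.06 and -14.52 and sham between 16.16 and 20.63. The count leaned on single libraries. It was 45 without sham 3, 85 without sham 1, 122 without BDL 2 and 160 without BDL 1. It was 304 without BDL 3, 252 without sham 2, and 69 without both BDL 2 and sham 2. When all 12 libraries shared 1 estimate of the spread, 14 genes passed, 12 higher and 2 lower.

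**Figure D1:**
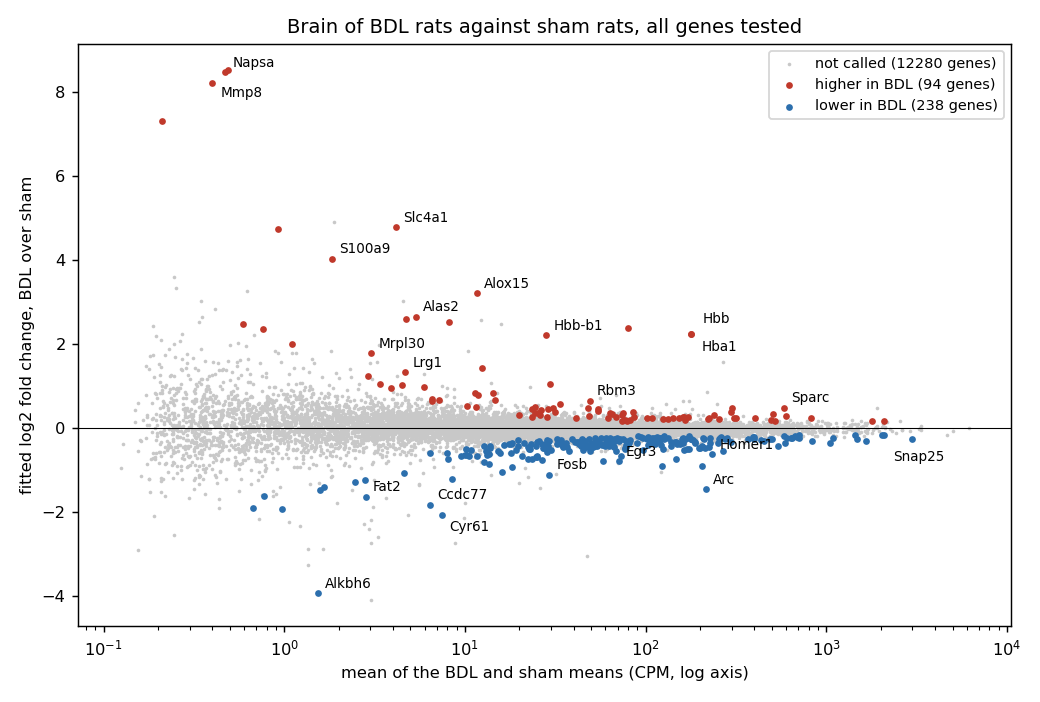
Each point is 1 of the 12612 genes tested, with the mean of the BDL and sham means on a log axis (CPM) against the fitted log2 fold change of BDL over sham. The 94 genes higher in BDL (red) include large changes of low and middling genes, and the 238 lower genes (blue) sit mostly within 1.5-fold of sham; grey points were not called, and the points above 7 had no sham read, so their fitted values are not sizes.

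Globin genes and some other transcripts of red blood cells were higher in ligated brains, and 1 of them, Slc4a1, had the largest fold change of the called genes that had a sham read. The red cell list had 37 names, of which 21 could be tested and 4 had no read in any library. Of the 21, 6 were higher and 2 lower (28.6% and 9.52%, against 0.745% and 1.89% of all genes), and 13 did not pass. The median log2 fold change of the 21 was 1.09, against 0.00 over all genes, but it was 0.105 over the 16 members with at least 1 CPM in 3 libraries and 0.697 without sham 2. Members low in sham, such as Slc4a1 with 7, 22 and 11 reads in sham 1 to 3, could enter the test through their BDL reads. The filter can therefore raise the shares and the median of this list, which are given as description only. In bulk tissue a different number of cells of a type and a different amount of RNA per cell cannot be told apart. Slc4a1, the band 3 anion exchanger of the red cell membrane, stood at 7.99, 10.1 and 5.86 CPM in BDL 1 to 3, against 0.139, 0.457 and 0.267 CPM in sham 1 to 3. The groups lay far apart, at a log2 fold change of 4.79 ± 0.37 (SE; adjusted p = 0.00242). The alpha globin gene Hba1 had 283, 387 and 209 CPM in BDL libraries and 54.1, 74.6 and 58.6 CPM in sham libraries (2.23 ± 0.21, adjusted p = 0.00349). The beta globin gene Hbb had 295, 405 and 189 CPM in BDL and 54.2, 73.1 and 61.2 CPM in sham (2.24 ± 0.25, adjusted p = 0.0058). Globin genes have near-identical copies, so how reads were split among them is uncertain. Hbb-b1, another beta globin row, was higher by 2.21 ± 0.24 (adjusted p = 0.00538).

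A pair of enzymes were among the higher genes. Alas2, which makes the first precursor of heme in red cell precursors, had 9.7, 12.6 and 5.46 CPM in BDL 1 to 3 and 1.17, 1.83 and 1.41 CPM in sham 1 to 3 (log2 fold change 2.65 ± 0.31, adjusted p = 0.00766). Alox15, a lipoxygenase that helps clear organelles from maturing red cells in rabbits, had 22.6, 28 and 12.4 CPM in BDL and 2.46, 2.49 and 1.8 CPM in sham (3.21 ± 0.29, adjusted p = 0.00333). In all 6 of the higher genes BDL 2 was the highest library and BDL 3 the lowest, and the order BDL 2, BDL 1, BDL 3 held from gene to gene. Members that red cells share with other cells did not move that way. Gypc, glycophorin C, was lower at 6.48, 6.83 and 5.82 CPM in BDL against 9.61, 9.62 and 9.62 CPM in sham (-0.59 ± 0.10, adjusted p = 0.0252). Ank1, the membrane adaptor ankyrin 1, was lower by -0.33 ± 0.06 (adjusted p = 0.0316). Gypc missed the threshold with any 1 of the 6 libraries left out, and Ank1 with any but sham 2. Of the 6 higher genes, Slc4a1, Alox15, Hba1 and Hbb-b1 passed under all 15 alternatives, Alas2 missed without sham 3 (adjusted p = 0.0539) and Hbb with robust shrinkage (adjusted p = 0.0612).

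Of the 8 called red cell genes, 4 had a promoter window in RefSeq (300 bases around the start, build GRCr8), and 1 of them, Alas2, held the letters AGATAA or TGATAA, the core bound by GATA factors, on either strand. Across 33469 rat promoter windows 18.9% hold one. The letters CCACACCC, also searched on both strands, stood in 1 of the 4 windows, that of Hbb (3.22% of all windows).

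Transcripts of neutrophils were rare and those of 3 genes were higher. The neutrophil list had 23 names, of which 9 could be tested and 7 had no read in any of the 6 libraries, Mpo, the peroxidase of young neutrophils, among them. Higher were Mmp8, S100a8 and S100a9. With few or no sham reads, Mmp8, S100a8 and S100a9 could be tested only through their BDL reads, so no share or median is given for the list. S100a9, which with S100a8 forms calprotectin, had 1.93, 4.76 and 3.68 CPM in BDL 1 to 3 and 0.477, 0.125 and 0 CPM in sham 1 to 3 (4.03 ± 0.75, adjusted p = 0.031). S100a8 had 1.43, 2.46 and 1.49 CPM in BDL and 0, 0.187 and 0 CPM in sham, which was 9 reads over the 3 sham libraries against 252 over BDL (adjusted p = 0.0262). Mmp8, the neutrophil collagenase, had 15, 43 and 55 reads in BDL 1 to 3 and 0 in sham, so it was at least 36.9-fold higher, taking 3 reads over the sham group as the floor (adjusted p = 0.0243). In none of these genes did the groups overlap, and BDL 2 or BDL 3 was the highest library. The summed level of the 9 genes overlapped between groups (15.8, 24.2 and 23.5 CPM in BDL, 18, 13.5 and 14.2 CPM in sham). None of the 3 genes kept its call without sham 3 or without BDL 2. Without both BDL 2 and sham 2 the number called in the list was 1, as in 1 model of all 12 libraries.

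Napsa and Reg3b are named here because they too had reads in every BDL library and none in sham. Napsa, an aspartic protease, had 34, 35 and 65 reads in BDL 1 to 3 (at least 43.8-fold higher), and Reg3b, a secreted lectin, had 16, 29 and 14 (at least 19.6-fold). Napsa kept its call with any 1 library left out. Reg3b lost its call with any 1 library left out (adjusted p from 0.0517 to 0.108, with 0.000174 to 0.43 over all alternatives run). Other genes of blood cells among the largest rises were Ccl6, a chemokine of rodents (2.48 ± 0.44), Myo1g, a myosin of blood cells (2.35 ± 0.36), and Cxcr1, a chemokine receptor (2.01 ± 0.38), with adjusted p of 0.0266, 0.0173 and 0.0313. Each of these 3 lost its call without sham 1, sham 3 or BDL 2. Ccl6 had 6, 13 and 6 reads in sham 1 to 3, and Myo1g had 10, 17 and 8. Like Napsa and Reg3b, Ccl6 and Myo1g could be tested only through their BDL reads. Of 14 acute phase genes tested, Lrg1 was higher (7.14%, against 0.745%). This secreted glycoprotein had 5.12, 7.82 and 7.14 CPM in BDL and 3.2, 2.58 and 2.16 CPM in sham (1.34 ± 0.21, adjusted p = 0.0189, but 0.103 at most over the alternatives, with the call lost without BDL 2 or sham 3). Haptoglobin, Hp, followed at 2, 2.24 and 2.14 CPM in BDL and 1.47, 1.16 and 1.09 CPM in sham without passing (adjusted p = 0.11). None of the 6 lymphocyte genes tested was called, and their summed level was 17.1, 24.5 and 29 CPM in BDL and 17.6, 19.9 and 16.7 CPM in sham.

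**Figure D2:**
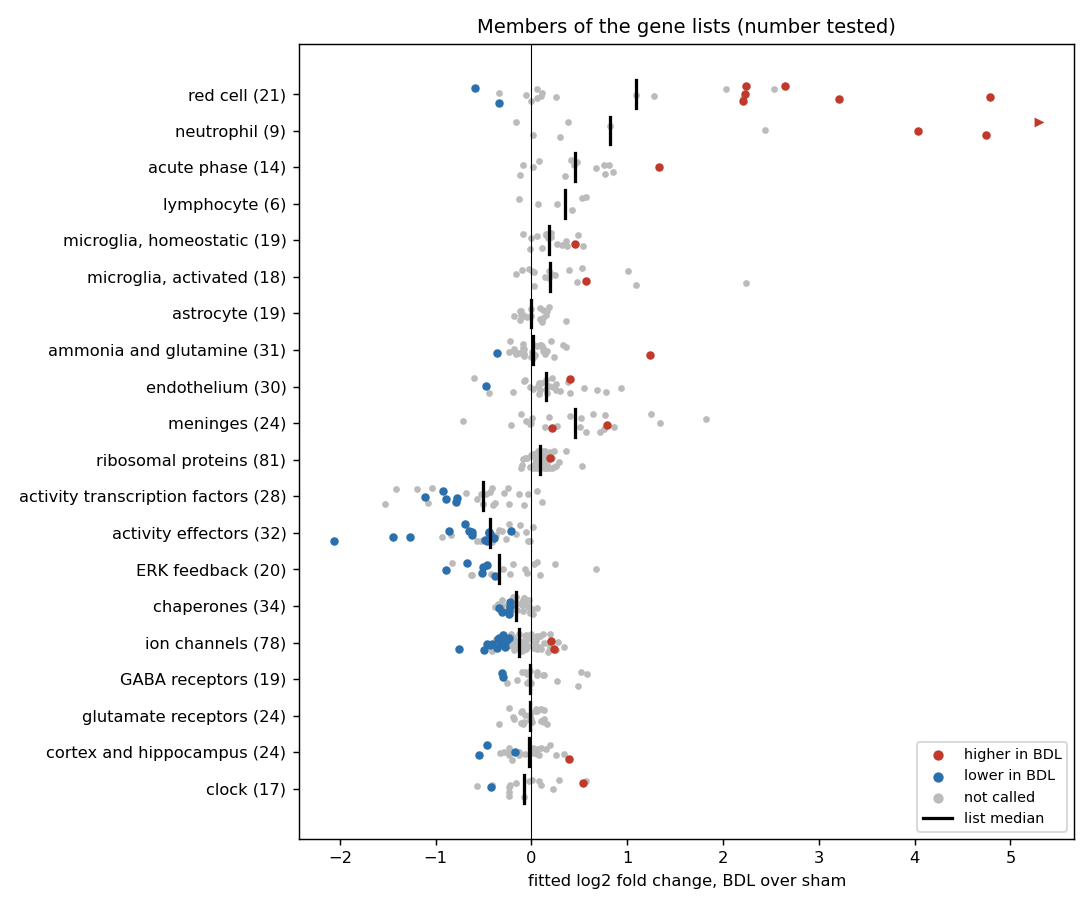
Fitted log2 fold change of BDL over sham for each tested member of 20 gene lists, with called genes in red (higher in BDL) or blue (lower) and the list median as a black bar. The medians run from 1.09 for red cell genes down to -0.51 for activity transcription factors. The red cell and neutrophil lists hold members tested through their BDL reads, so the filter can raise their medians. Mmp8, drawn as a triangle at the edge, had no sham read.

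Some of the genes that neurons switch on with activity were lower in ligated brains. Among 28 activity-regulated transcription factors, 5 were lower and 0 higher (17.9%, against 1.89% and 0.745% of all genes), 26 of the 28 fold changes were negative, and the median log2 fold change was -0.51, against 0.00 over all genes. Their summed level was 943, 1147 and 1288 CPM in BDL 1 to 3 and 1658, 1627 and 1581 CPM in sham 1 to 3. Egr3, a zinc finger factor induced by synaptic activity, was the steadiest, at 51.4, 48.9 and 56.4 CPM in BDL and 94.3, 85.6 and 89.5 CPM in sham (-0.78 ± 0.06, adjusted p = 0.00242), and it passed under all 15 alternatives. Fosb, an AP-1 subunit, had 15.7, 16.2 and 23.6 CPM in BDL and 42, 39.1 and 39 CPM in sham (-1.11 ± 0.14, adjusted p = 0.00968). Every BDL library lay below every sham library in both genes.

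Egr1, of the same family as Egr3, had 105, 143 and 182 CPM in BDL 1 to 3 and 297, 257 and 243 CPM in sham 1 to 3 (-0.89 ± 0.17, adjusted p = 0.0328). Klf10, a zinc finger factor, was lower by -0.78 ± 0.11 (adjusted p = 0.0117), and Npas4, a neuronal factor that answers calcium entry, by -0.93 ± 0.18 (adjusted p = 0.0344). Some of the best known members had large but uneven differences that did not pass, and are named after their values were seen. Fos had 10.6, 23.4 and 27.6 CPM in BDL and 42.5, 44.2 and 43.6 CPM in sham (adjusted p = 0.0819). Nr4a1 had 48.5, 114 and 77.9 CPM in BDL and 160, 188 and 145 CPM in sham (adjusted p = 0.0731). Egr2 had 7.09, 12.7 and 22.5 CPM in BDL and 35.5, 35 and 42.7 CPM in sham (adjusted p = 0.0611). In these 3 the BDL libraries spread over a wider range than the sham libraries. Of the 28 factors 16 had BDL entirely below sham (13.6% of all genes did). The number called was 1 without sham 3, 3 without sham 1 and 12 without BDL 3, and 11 by DESeq2. It was 2 without both BDL 2 and sham 2, and 1 in 1 model of all 12 libraries. Fosb and Klf10 lost their calls without sham 3, Egr1 without BDL 2 or any 1 sham library, and Npas4 without BDL 1, BDL 3, sham 1 or sham 3.

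Effectors that such factors serve were lower as well, in 15 cases. Of 32 activity-regulated effectors, 15 were lower and 0 higher (46.9%, against 1.89% and 0.745%), 31 fold changes were negative, 24 genes had BDL entirely below sham, and the median log2 fold change was -0.43. Their summed level was 2567, 2710 and 2690 CPM in BDL 1 to 3 and 3613, 3389 and 3437 CPM in sham 1 to 3. Nptx2, a secreted pentraxin that gathers AMPA receptors at synapses, had 63.7, 67 and 68.2 CPM in BDL and 89.7, 88.1 and 91.7 CPM in sham (-0.44 ± 0.04, adjusted p = 0.00349). Homer1, a postsynaptic scaffold, had 181, 174 and 200 CPM in BDL and 305, 254 and 294 CPM in sham (-0.62 ± 0.08, adjusted p = 0.00968). These groups were narrow and well apart. Arc, which takes AMPA receptors off the synapse, had 69.8, 171 and 106 CPM in BDL and 310, 335 and 302 CPM in sham (-1.45 ± 0.26, adjusted p = 0.0286), a larger difference with a wider spread in BDL.

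Secreted peptides and their processing were among the lower effectors. Vgf, the precursor of neuronal peptides, had 191, 170 and 175 CPM in BDL 1 to 3 and 255, 246 and 238 CPM in sham 1 to 3 (-0.46 ± 0.05, adjusted p = 0.00682). Bdnf, the neurotrophin, had 44.3, 42.3 and 43.1 CPM in BDL and 63.1, 51.7 and 61 CPM in sham (-0.44 ± 0.07, adjusted p = 0.0243). Pcsk1, a convertase that cuts such precursors, was also lower, by -0.40 ± 0.06 (adjusted p = 0.0184). Dnajb5, a co-chaperone, had the smallest p of the list at 165, 171 and 162 CPM in BDL and 240, 224 and 231 CPM in sham (-0.48 ± 0.04, adjusted p = 0.00333). The other lower members included Arl4d, a small GTPase (-0.70 ± 0.08), Trib1, a pseudokinase (-0.86 ± 0.12), Lingo1 (-0.21 ± 0.04) and Gadd45b (-0.62 ± 0.11). The rest were Rgs4, which damps G protein signals (-0.43 ± 0.08), Cyr61, a matrix protein (-2.06 ± 0.40), Gpr3, a receptor that raises cAMP (-1.27 ± 0.25), and Plk3, a kinase (-0.65 ± 0.13). Adjusted p of these 8 ran from 0.00766 to 0.038. The number called was 5 without sham 1 or sham 3 and 8 without BDL 2. Without both BDL 2 and sham 2, 6 were lower and 1 higher, and 0 were called in 1 model of all 12 libraries. Dnajb5, Nptx2, Vgf and Arl4d kept their calls with any 1 library left out, while Arc lost its call without BDL 3 or any 1 sham library.

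Promoter windows in RefSeq (GRCr8) were at hand for 10 of the 15 lower effectors and 3 of the 5 lower factors. The short form of the cAMP response element, TGACG, read on both strands, stood in 8 of the 10 effector windows and in 1 of the 3 factor windows, against 21.2% of 33469 rat windows. The full palindrome TGACGTCA, which holds the short form on both strands, stood in 2 of the 10 effector windows (1.83% of all windows), the Egr site GCGTGGGCG in 0 of 13 (0.544%), and a CArG box in 1 of 13, that of Egr1 (1.64%). These are letters in a window of 300 bases, not tests of binding. The lists were made of activity-regulated genes, and members that were not called were not searched. The shares therefore cannot set the lower members apart from the rest of their lists. The windows of Egr1 (chr18:26736828-26737127, strand plus), Nptx2 (chr12:15161996-15162295, strand minus), Vgf (chr12:25276971-25277270, strand minus) and Arl4d (chr10:87100673-87100972, strand plus) are shown as examples of an early factor and of 3 effectors with few and with several elements, with CArG boxes and full or short cAMP response elements in capitals.
Egr1: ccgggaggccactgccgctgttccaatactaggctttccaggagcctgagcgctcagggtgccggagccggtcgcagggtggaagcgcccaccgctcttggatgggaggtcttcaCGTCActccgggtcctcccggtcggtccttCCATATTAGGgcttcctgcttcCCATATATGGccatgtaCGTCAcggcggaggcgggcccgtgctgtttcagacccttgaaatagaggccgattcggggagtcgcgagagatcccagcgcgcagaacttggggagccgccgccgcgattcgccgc
Nptx2: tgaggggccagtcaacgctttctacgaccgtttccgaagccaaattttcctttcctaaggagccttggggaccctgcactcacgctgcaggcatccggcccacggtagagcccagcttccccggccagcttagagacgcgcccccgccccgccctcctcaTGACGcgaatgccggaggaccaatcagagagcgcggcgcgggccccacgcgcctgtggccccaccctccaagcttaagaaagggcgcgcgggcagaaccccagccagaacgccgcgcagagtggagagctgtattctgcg
Vgf: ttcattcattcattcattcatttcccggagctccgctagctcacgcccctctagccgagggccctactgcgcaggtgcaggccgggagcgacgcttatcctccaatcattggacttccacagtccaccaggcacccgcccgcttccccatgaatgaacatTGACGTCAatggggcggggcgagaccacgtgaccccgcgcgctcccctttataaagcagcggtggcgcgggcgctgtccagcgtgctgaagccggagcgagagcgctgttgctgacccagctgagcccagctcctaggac
Arl4d: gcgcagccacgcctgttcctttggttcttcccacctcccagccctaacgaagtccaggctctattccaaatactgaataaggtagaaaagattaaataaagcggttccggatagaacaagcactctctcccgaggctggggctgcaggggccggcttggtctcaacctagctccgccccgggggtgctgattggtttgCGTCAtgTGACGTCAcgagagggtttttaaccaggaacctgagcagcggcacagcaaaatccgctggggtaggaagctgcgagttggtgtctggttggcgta

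Some feedback genes of the ERK cascade, which ERK induces and many of which hold it back, were lower too. Of 20 members, 6 were lower and 0 higher (30% against 1.89%), 13 had BDL entirely below sham and 2 entirely above, and 5 fold changes were positive, with a median log2 fold change of -0.34. Spry4, which blocks Ras activation, had 18.8, 19.4 and 19.2 CPM in BDL 1 to 3 and 28.7, 30.3 and 32.8 CPM in sham 1 to 3 (-0.68 ± 0.06, adjusted p = 0.00349). Spred1 and Spred2, relatives of the Sprouty proteins, were lower by -0.47 ± 0.06 and -0.38 ± 0.05 (adjusted p = 0.0111 and 0.0117). Etv5, an ETS factor that ERK induces, had 135, 130 and 141 CPM in BDL and 205, 182 and 192 CPM in sham (-0.51 ± 0.05, adjusted p = 0.00528). The immediate early gene Ier5 had 69.8, 92.3 and 98.6 CPM in BDL and 171, 152 and 160 CPM in sham (-0.89 ± 0.11, adjusted p = 0.00981). Dusp4, a phosphatase that switches off MAP kinases, was lower by -0.50 ± 0.10 (adjusted p = 0.0389). Without sham 3 the number called was 2, and Spry4 and Etv5 kept their calls with any 1 library left out. The number called was also 2 without both BDL 2 and sham 2, and 0 in 1 model of all 12 libraries.

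The 3 activity lists share no gene: of their 80 genes, 26 were lower, 0 higher and 72 had a negative fold change, and the 26 made up 10.9% of all lower genes. The BDL libraries were not alike in them. BDL 1 was the lowest BDL library in 18 of the 28 factors, 18 of the 32 effectors and 13 of the 20 ERK feedback genes, and in 33.4% of all genes tested. The spread over BDL libraries, as the standard deviation of log2 (CPM + 0.1), exceeded that over sham libraries in 23 of the 28 factors, against 52.4% of all genes. BDL 1 was not low in these genes alone, since it was also the lowest BDL library in 28 of 34 interferon and MHC genes, 15 of 16 pericyte genes and 21 of 25 glucocorticoid target genes.

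**Figure D3:**
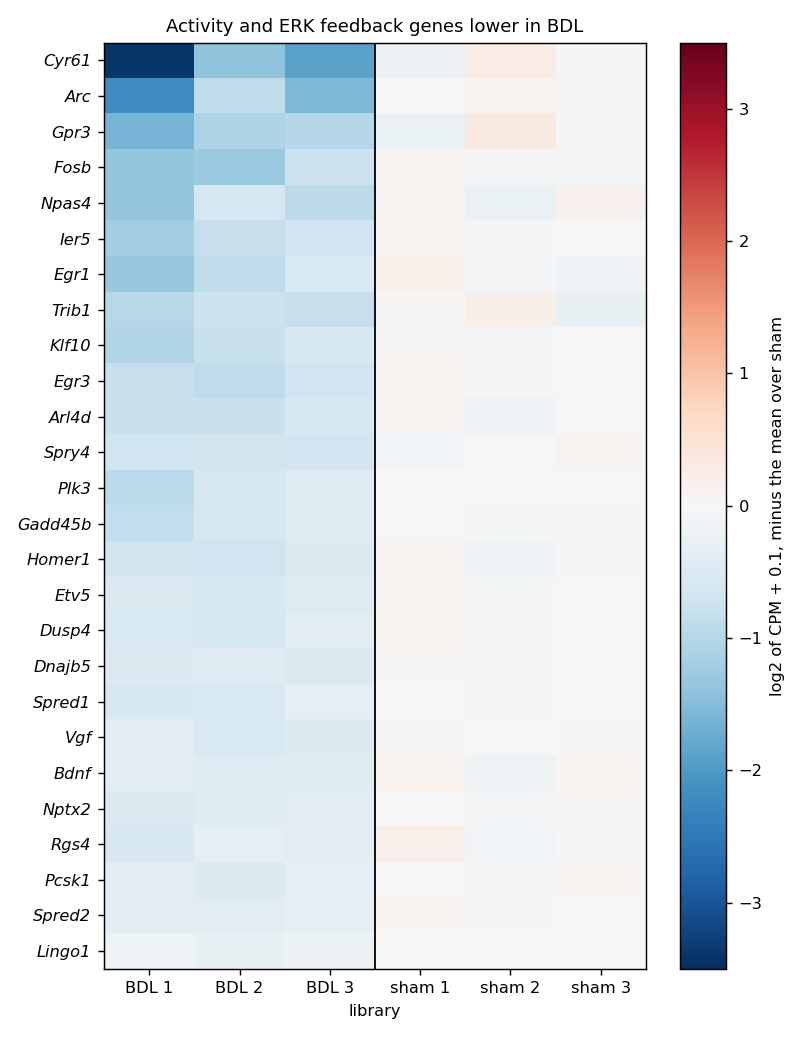
Level of each of the 26 lower activity and ERK feedback genes in each library, as log2 (CPM + 0.1) minus the mean of the 3 sham libraries, with BDL libraries left of the line. All 26 are below the sham mean in every BDL library, most deeply in BDL 1 for Arc, Egr1 and Cyr61.

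Some protein-folding genes were lower, by small amounts. Of 34 chaperone and unfolded-protein response genes, 6 were lower and 0 higher (17.6% against 1.89%), 31 fold changes were negative, 15 genes had BDL entirely below sham, and the median log2 fold change was -0.16. The summed level of the 34 was 8322, 8130 and 8372 CPM in BDL 1 to 3 and 9206, 9078 and 9278 CPM in sham 1 to 3. Hspa5, the main HSP70 of the endoplasmic reticulum, had 413, 397 and 398 CPM in BDL and 493, 484 and 522 CPM in sham (-0.31 ± 0.04, adjusted p = 0.00984). Hsp90b1, the HSP90 of that compartment, was lower by -0.23 ± 0.03 (adjusted p = 0.00996) and Calr, its calcium-binding lectin calreticulin, by -0.23 ± 0.03 (adjusted p = 0.0117). In the cytosol, Hsph1 had 512, 508 and 542 CPM in BDL and 677, 643 and 661 CPM in sham (-0.34 ± 0.04, adjusted p = 0.0059). Hspa8, the constitutive HSP70, was lower by -0.22 ± 0.04 (adjusted p = 0.0287), and Fkbp4, an HSP90 partner, by -0.24 ± 0.04 (adjusted p = 0.031). The number called was 2 without sham 3, and 12 by DESeq2. Hsph1 and Hspa5 kept their calls with any 1 library left out. In 1 model of all 12 libraries none of the 6 lower genes kept its call.

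Some ion channel genes were lower. Of 78 potassium, sodium and calcium channel genes, 14 were lower and 2 higher (17.9% and 2.56%, against 1.89% and 0.745%), 33 had BDL entirely below sham and 6 entirely above, and the median log2 fold change was -0.12. Scn1a, a sodium channel prominent in fast-spiking interneurons, had 127, 142 and 151 CPM in BDL 1 to 3 and 217, 187 and 190 CPM in sham 1 to 3 (-0.50 ± 0.08, adjusted p = 0.0184). Cacng2, the AMPA receptor partner stargazin, had 43.6, 46.4 and 48.2 CPM in BDL and 63.1, 59.1 and 62.2 CPM in sham (-0.41 ± 0.05, adjusted p = 0.0102). Kcns1, a modulatory potassium subunit, had 16, 21.1 and 22.8 CPM in BDL and 34, 32.3 and 34.7 CPM in sham (-0.75 ± 0.12, adjusted p = 0.0183). Among the 14 were further potassium channels (Kcnc1, Kcnh1, Kcnh5, Kcnh7, Kcnk1, Kcns2 and Kcnj10), T-type calcium channels (Cacna1g and Cacna1i) and the auxiliary subunit Cacnb4, with log2 fold changes from -0.47 to -0.24. Higher were Scn3b, a sodium channel subunit (0.20 ± 0.04, adjusted p = 0.0437), and Cacna1h, the remaining T-type channel (0.24 ± 0.05, adjusted p = 0.0437). Most of these calls rested on all 6 libraries. Of the 78 genes 0 were lower without sham 3, 1 without sham 1, 3 without BDL 2 and 6 without BDL 1, and neither of the higher genes passed with any 1 library left out. In 1 model of all 12 libraries none of the 14 lower and 2 higher genes kept its call.

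Few receptor and synaptic genes were called. Of 19 GABA receptor genes, Gabrb2 (-0.31 ± 0.05, adjusted p = 0.0266) and Gabrd (-0.29 ± 0.05, adjusted p = 0.0306), subunits of synaptic and of extrasynaptic receptors, were lower (10.5%, against 1.89% of all genes). Tspo, the mitochondrial protein long used as a marker of neuroinflammation, had 2.17, 3.36 and 3.15 CPM in BDL and 1.97, 1.93 and 2.16 CPM in sham and did not pass (adjusted p = 0.233). None of 24 glutamate receptor genes was called, at a median log2 fold change of -0.01. Of 35 synaptic structure genes, 2 were lower and 1 higher (5.71% and 2.86%, against 1.89% and 0.745% of all genes). Snap25, a vesicle fusion protein, was lower at 2620, 2730 and 2720 CPM in BDL and 3470, 3120 and 3150 CPM in sham (-0.27 ± 0.04, adjusted p = 0.0166). Synpo, an actin partner in spines, was lower too (-0.27 ± 0.04, adjusted p = 0.0131), and Cnih2, an AMPA receptor partner, was higher (0.32 ± 0.06, adjusted p = 0.0271). Among 24 cortex and hippocampus markers, 3 were lower and 1 higher (12.5% and 4.17%). Those called included Lamp5 (-0.47 ± 0.07) and Nrgn (-0.17 ± 0.03), which were lower, and Wfs1, which was higher (0.40 ± 0.07), with adjusted p from 0.0166 to 0.0366. Each of these 8 genes lost its call without sham 3. The summed level of the 24 markers was 7035 to 7135 CPM in BDL and 7090 to 7330 CPM in sham.

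Among the genes that handle ammonia and glutamine, 1 of 31 was higher and 1 lower (3.23% each, against 0.745% and 1.89%), with a median log2 fold change of 0.02. Slc38a5, a glutamine transporter, had 3.86, 3.92 and 4.56 CPM in BDL 1 to 3 and 1.83, 1.93 and 1.46 CPM in sham 1 to 3 (1.24 ± 0.18, adjusted p = 0.0167), and lost its call without sham 1 or sham 3. Kcnj10, the astrocyte potassium channel Kir4.1, had 71.9, 72.7 and 67.5 CPM in BDL and 95.8, 84.5 and 91.9 CPM in sham (-0.36 ± 0.06, adjusted p = 0.0183), with the call likewise lost without sham 1 or sham 3. Glul, glutamine synthetase, had 1910, 1900 and 1930 CPM in BDL and 1990, 2060 and 1980 CPM in sham, a small difference that did not pass (-0.08 ± 0.02, adjusted p = 0.138). None of 19 astrocyte markers was called. Gfap, the intermediate filament of reactive astrocytes, overlapped at 596, 674 and 675 CPM in BDL and 649, 699 and 758 CPM in sham (adjusted p = 0.382). Aqp4, the water channel, had 738, 652 and 711 CPM in BDL and 756, 785 and 844 CPM in sham (adjusted p = 0.124). Slc1a2, the main glutamate transporter, was at -0.09 ± 0.07 (adjusted p = 0.539). Of 24 reactive astrocyte genes none was called either.

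Few microglial markers were called. Of 19 homeostatic markers, 1 was higher (5.26%, against 0.745% of all genes), 7 had BDL entirely above sham (11.7% of all genes did), 16 fold changes were positive, and the median log2 fold change was 0.18. The called gene C1qc, a chain of complement C1q, stood at 25.3, 30.1 and 26.7 CPM in BDL and 18.3, 21 and 20.5 CPM in sham (0.46 ± 0.08, adjusted p = 0.0286). Among 18 markers of activated microglia 1 was higher (5.56%). This was Lyz2, a lysozyme, at 36.6, 39.1 and 45.1 CPM in BDL and 26.8, 28 and 26.8 CPM in sham (0.57 ± 0.08, adjusted p = 0.0126). C1qc lost its call without BDL 2, BDL 3, sham 1 or sham 3, and Lyz2 without sham 1 or sham 3. Aif1, the microglial protein Iba1, had 12.8, 13.7 and 13.4 CPM in BDL and 9.71, 12.3 and 12.7 CPM in sham (adjusted p = 0.363). None of 21 cytokine and NF-kB genes was called. Of 34 interferon and MHC genes 1 was higher (2.94%, against 0.745% of all genes). This was Rsad2, an antiviral enzyme (1.03 ± 0.21, adjusted p = 0.0387), with the call lost when any 1 library other than BDL 3 was left out.

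In vessels and their surroundings the calls were 4. Cldn5, the main claudin of the blood-brain barrier, was higher at 54.3, 67.6 and 64.8 CPM in BDL 1 to 3 and 44.4, 49.1 and 48.1 CPM in sham 1 to 3 (0.40 ± 0.08, adjusted p = 0.0439). Kdr, the main VEGF receptor of blood vessels, was lower at 11.5, 11.8 and 11.1 CPM in BDL and 14.6, 15.8 and 17.4 CPM in sham (-0.47 ± 0.09, adjusted p = 0.0313). These were the calls among 30 endothelial genes (3.33% each way, against 0.745% higher and 1.89% lower of all genes), and both were lost without most single libraries (7 and 9 of the 15 alternatives). Vwf, the clotting factor of endothelium, parted the groups at 61.2, 100 and 97.9 CPM in BDL and 43.4, 59.3 and 48.7 CPM in sham without passing (0.78 ± 0.18, adjusted p = 0.0656). Vegfc, the growth factor that the series delivers by vector, was at -0.30 ± 0.22 (adjusted p = 0.513) in these rats. Of 24 meningeal and fibroblast genes, 2 were higher (8.33%, against 0.745% of all genes). Dcn, the matrix proteoglycan decorin, was higher at 14.6, 13.1 and 17.2 CPM in BDL and 8.16, 8.5 and 9.48 CPM in sham (0.78 ± 0.12, adjusted p = 0.0169). Pdgfra, which oligodendrocyte precursors also carry, was higher as well (0.22 ± 0.05, adjusted p = 0.0486). BDL 2, the library rich in meningeal transcripts, was the lowest of the BDL libraries for Dcn, and the call of Dcn was lost without sham 1 or sham 3, and that of Pdgfra with any 1 library left out.

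Outside the lists stood 246 of the 332 genes. The smallest p among the higher genes of at least 10 CPM beside those of red cells was that of Rbm3, a cold-inducible RNA-binding protein, at 60.6, 61.9 and 57.8 CPM in BDL 1 to 3 and 40.2, 38 and 36.1 CPM in sham 1 to 3 (0.66 ± 0.06, adjusted p = 0.00333). Its relative Cirbp, named after its values were seen, was also higher at 54.9, 50.8 and 55.6 CPM in BDL and 45.5, 43.4 and 43.1 CPM in sham (0.29 ± 0.05, adjusted p = 0.0304). Both genes parted the groups, but the call of Cirbp was lost with any 1 library left out other than BDL 2. Next came Gpc4, a heparan sulfate proteoglycan that astrocytes secrete (0.49 ± 0.05), and Ino80e, a subunit of a chromatin remodeller (0.46 ± 0.05). Txnip, an inhibitor of thioredoxin (0.39 ± 0.05), and Ptp4a3, a phosphatase (0.47 ± 0.06), were also higher. Adjusted p of these 4 ran from 0.0059 to 0.00968. Rbm3, Gpc4, Ino80e and Txnip kept their calls with any 1 library left out. Sparc, an extracellular matrix glycoprotein also named after its values were seen, had 650, 716 and 687 CPM in BDL and 450, 533 and 482 CPM in sham (0.49 ± 0.06, adjusted p = 0.00984), and lost its call without sham 3. Larger rises included Mrpl30, of the mitochondrial ribosome (1.79 ± 0.23, adjusted p = 0.00981), and Sepw1, a selenoprotein (1.04 ± 0.16, adjusted p = 0.0173). Sult1a1, a sulfotransferase that is in the list of glucocorticoid targets, was also higher (1.43 ± 0.24, adjusted p = 0.0246). The calls of Mrpl30, Sepw1 and Sult1a1 were lost without sham 3.

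On the lower side the smallest p of all 12612 genes was that of Pdp1, the phosphatase that switches on pyruvate dehydrogenase, at 114, 107 and 111 CPM in BDL 1 to 3 and 191, 179 and 182 CPM in sham 1 to 3 (-0.73 ± 0.04, adjusted p = 0.000881). Irs2, an adaptor of the insulin receptor, had 150, 141 and 143 CPM in BDL and 212, 198 and 205 CPM in sham (-0.50 ± 0.04, adjusted p = 0.00333). Slc20a1, a phosphate transporter, had 143, 143 and 142 CPM in BDL and 184, 178 and 182 CPM in sham (-0.35 ± 0.04, adjusted p = 0.00498). In all 3 the groups were tight and apart. Cxxc5, a zinc finger protein (-0.40 ± 0.04), and Bcor, a partner of the repressor BCL6 (-0.53 ± 0.06), had adjusted p of 0.00498. Ccdc77, a little-studied coiled-coil gene, had 2.48, 2.8 and 3.13 CPM in BDL and 9.89, 9.81 and 10.2 CPM in sham (-1.83 ± 0.13, adjusted p = 0.00146) and passed under all 15 alternatives. Fat2, a giant cadherin (-1.63 ± 0.17, adjusted p = 0.00528), and Tnnc2, troponin C of fast muscle (-1.20 ± 0.14, adjusted p = 0.00682), were the next low genes to hold with any 1 library left out, as Pdp1, Irs2, Slc20a1, Cxxc5 and Bcor also did. Edn1, the vessel-constricting peptide endothelin 1, had 1.43, 1.53 and 2.08 CPM in BDL and 4.45, 4.49 and 2.84 CPM in sham (-1.23 ± 0.25, adjusted p = 0.0382), and lost its call when any 1 library other than BDL 3 was left out. Alkbh6 had the most negative fitted value on few reads (0.439, 0.129 and 0 CPM in BDL, against 1.87, 4.55 and 2.21 CPM in sham), and its call was lost under 9 of the 15 alternatives.

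**Figure D4:**
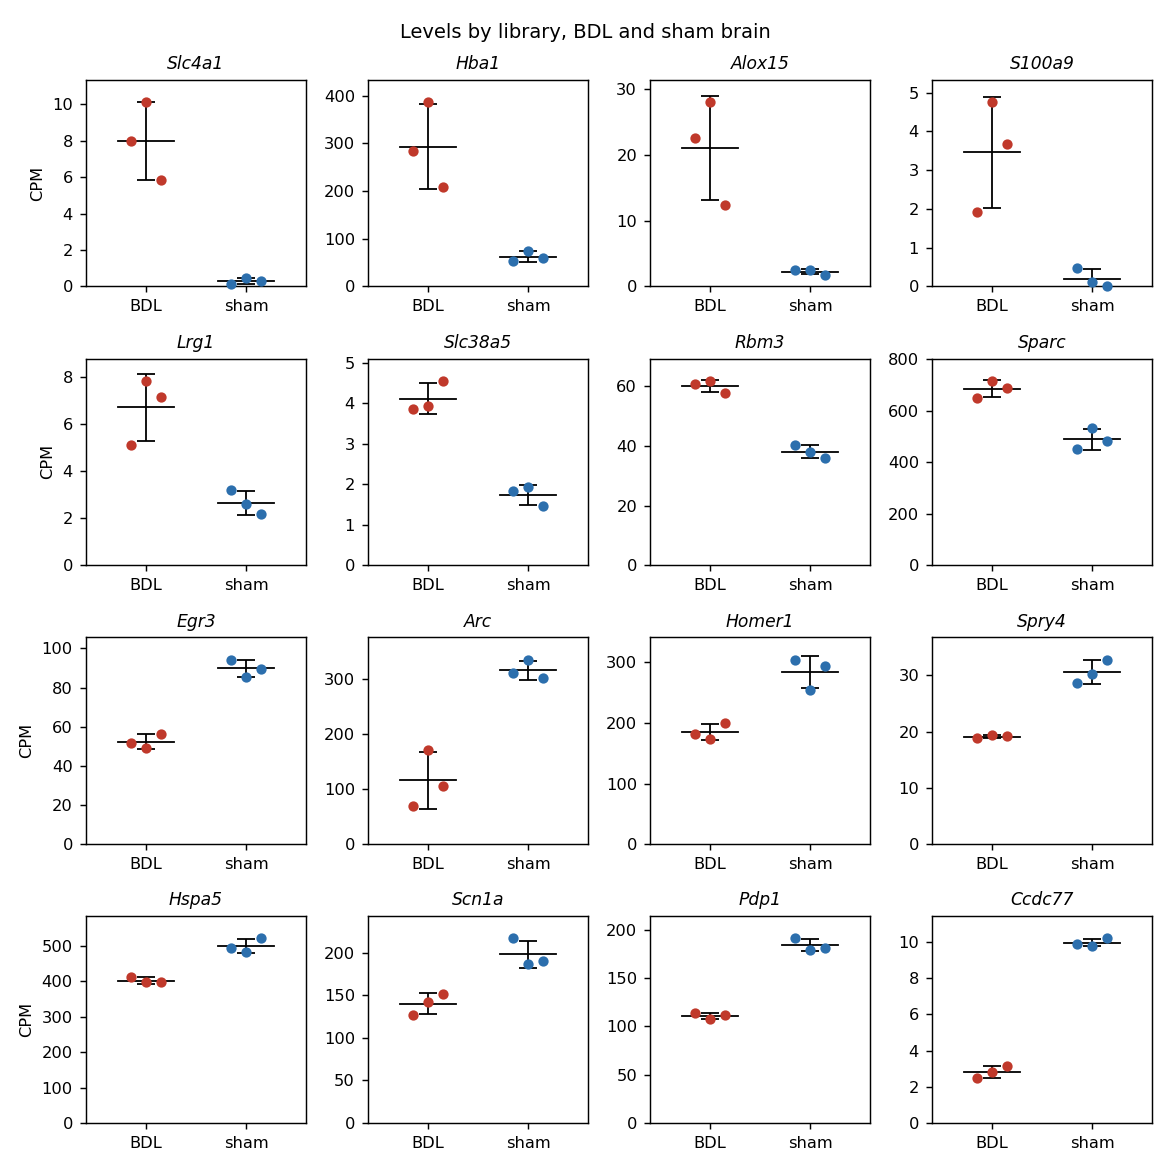
Level of 16 genes in CPM in each library, BDL left of sham, with the mean and standard deviation of 3 libraries as bar and whiskers. In each panel the 3 BDL libraries lie on one side of the 3 sham libraries, and of the lower genes Ccdc77 and Arc differ most (log2 fold changes -1.83 and -1.45), by less than Slc4a1, Hba1 and Alox15 (4.79, 2.23 and 3.21).

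Among clock genes, 1 of 17 was higher and 1 lower (5.88% each, against 0.745% and 1.89% of all genes). Arntl, the activator also called Bmal1, had 44.6, 42.2 and 48.1 CPM in BDL 1 to 3 and 65.2, 56.3 and 58.5 CPM in sham 1 to 3 (-0.42 ± 0.07, adjusted p = 0.0243). Ciart, a repressor of the CLOCK and BMAL1 pair, had 11.5, 12.2 and 12.9 CPM in BDL and 8.34, 8.79 and 8.07 CPM in sham (0.54 ± 0.09, adjusted p = 0.0238). They moved in opposite directions, and both calls were lost without BDL 2, sham 1 or sham 3. Of 25 glucocorticoid target genes 1 was higher, Sult1a1 (4%, against 0.745% of all genes). The metallothionein gene Mt2A, a target of zinc and glucocorticoids, parted the groups at 18.4, 38.2 and 35.2 CPM in BDL and 14.5, 16.3 and 15.6 CPM in sham without passing (0.99 ± 0.23, adjusted p = 0.064).

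Of 26 myelin and oligodendrocyte genes, 1 was higher and 1 lower (3.85% each, against 0.745% and 1.89% of all genes). The higher gene was Pdgfra, as given above, and the lower was Ugt8, which makes the galactolipids of myelin (-0.35 ± 0.06, adjusted p = 0.0204). Single calls in other families included Fads1, a fatty acid desaturase (-0.23 ± 0.05, adjusted p = 0.038, of 31 genes of the cholesterol and SREBP list). Others were Slc39a10, a zinc importer (-0.26 ± 0.04, adjusted p = 0.0122, of 25), and Aldh1a1, an enzyme of dopamine neurons and other cells (-0.43 ± 0.08, adjusted p = 0.0325, of 7). To these came Zfp180 (-0.36 ± 0.06, adjusted p = 0.0246, of 176 zinc finger genes) and Rpl10a (0.19 ± 0.04, adjusted p = 0.0481). In the last family, 74 of 81 cytosolic ribosomal protein genes had a positive fold change at a median of 0.09, and 23 had BDL entirely above sham, against 11.7% of all genes. Each of these 7 calls was lost without sham 3. The shares lower were 3.23%, 4%, 14.3% and 0.568% in the families of Fads1, Slc39a10, Aldh1a1 and Zfp180, against 1.89% of all genes. In the family of Rpl10a the share higher was 1.23%, against 0.745%. Lists with no call were those of pericytes (16 tested), collagens (24), choroid plexus (18), ependyma (9), striatum (19), thalamus, hindbrain and cerebellum (11), hypothalamus and pituitary (14), interneuron peptides (24), LXR and bile acid genes (21), Nrf2 targets (28), splicing (36), oxidative phosphorylation (74), microRNA rows (28 tested of 456) and ribosomal RNA (3), besides those named above. Over all genes tested 2454 had an unadjusted p under 0.05.

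The ligated rats given a vector were set beside these values in 1 model of all 12 libraries, in which each ligated group was compared with the same 3 sham libraries, so the comparisons are not independent. CPM values there differ slightly from those above because scaling used 12 libraries. Hba1 had 280, 381 and 207 CPM in BDL rats without vector. Rats given AAV-GFP had 362, 402 and 381 CPM, those given AAV-VEGFC 427, 426 and 426 CPM, and sham rats 53.2, 73.2 and 57.6 CPM. The log2 fold changes over sham were 2.24 ± 0.19 for BDL, 2.64 ± 0.19 for AAV-GFP and 2.80 ± 0.20 for AAV-VEGFC. Lrg1 was at 1.34 ± 0.20, 2.02 ± 0.20 and 2.16 ± 0.21 in the same order. Arc had 68.9, 169 and 104 CPM in BDL rats without vector. Its level was 35, 44.4 and 39.1 CPM after AAV-GFP, 52.7, 46 and 51.1 CPM after AAV-VEGFC and 305, 328 and 297 CPM in sham (-1.44 ± 0.24, -2.97 ± 0.26 and -2.63 ± 0.25 in that order). Every ligated library was below every sham library.

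In that model Arc in BDL rats missed the threshold (adjusted p = 0.0644), as did Spry4 (adjusted p = 0.0644), Rbm3 (0.416), Cldn5 (0.607) and Hspa5 (0.201), and also Egr1 at -0.88 ± 0.27 (adjusted p = 0.502), where the AAV-GFP and AAV-VEGFC groups were at -1.84 ± 0.27 and -1.23 ± 0.27 (adjusted p = 0.00163 and 0.0108). Spry4 was at -0.67 ± 0.11, -1.20 ± 0.11 and -1.13 ± 0.11, and Rbm3 at 0.66 ± 0.18, 0.76 ± 0.18 and 1.03 ± 0.19. Cldn5 was at 0.41 ± 0.13 in BDL, 1.32 ± 0.14 with AAV-GFP and 1.45 ± 0.14 with AAV-VEGFC, and the groups were not tested against each other here. Hspa5 was at -0.31 ± 0.06 in BDL, -0.10 ± 0.06 with AAV-GFP and -0.28 ± 0.06 with AAV-VEGFC. These genes are a part of those named, and some others did not keep their direction. Cyr61 was at -2.05 ± 0.68 in BDL, -1.99 ± 0.68 with AAV-GFP and 1.0 ± 0.64 with AAV-VEGFC. Cacna1h was at 0.25 ± 0.09, -0.17 ± 0.09 and -0.54 ± 0.09 in the same order. Wfs1 was at 0.40 ± 0.11, 0.03 ± 0.11 and -0.18 ± 0.11. Library ribosomal RNA was 0.186% to 0.333% of reads in BDL, 0.48% to 1.22% with AAV-GFP, 0.823% to 1.28% with AAV-VEGFC and 0.147% to 0.182% in sham, and its part in these values was not tested.

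**Figure D5:**
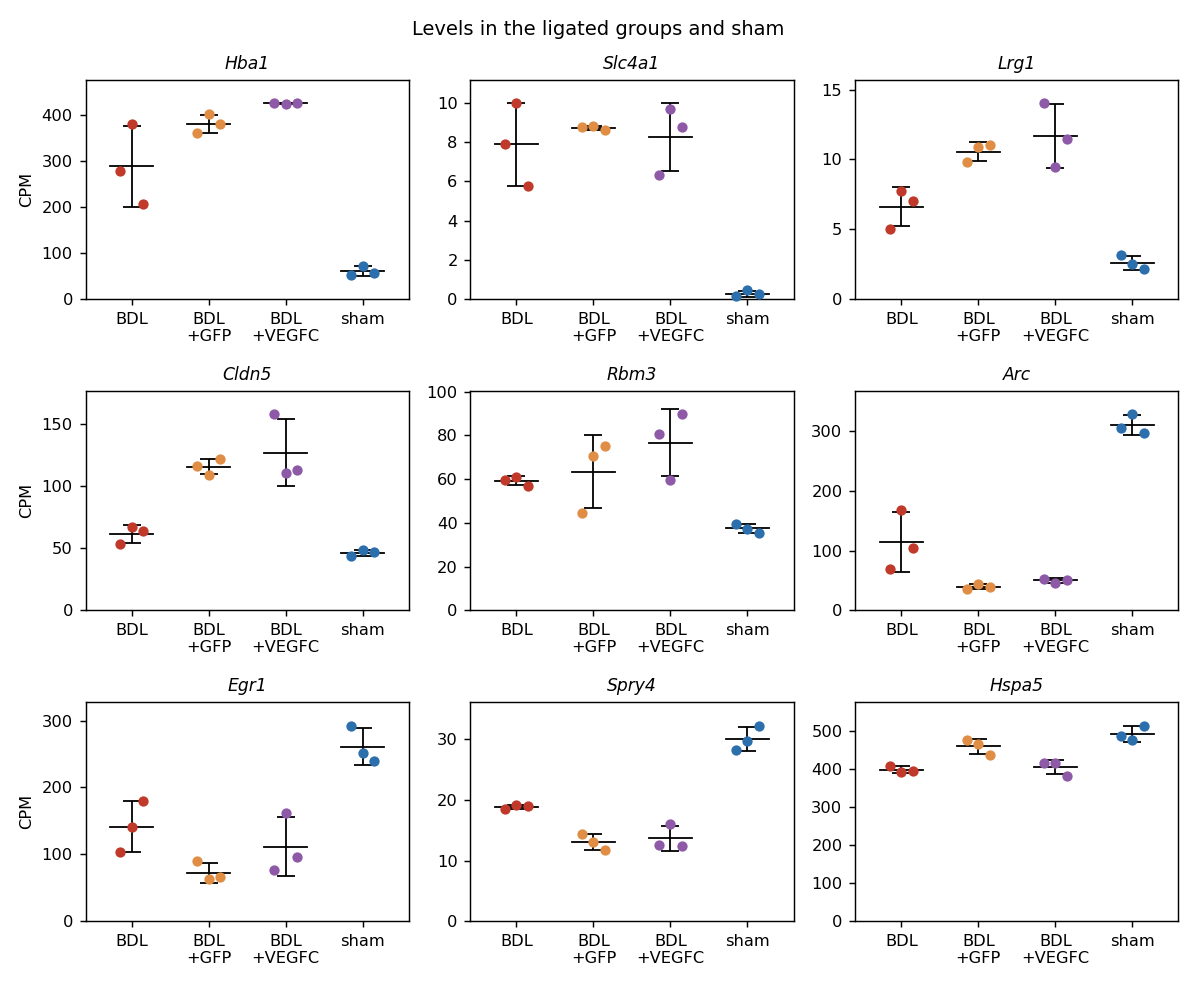
Level of 9 genes in CPM (scaled over 12 libraries) in BDL, BDL with AAV-GFP, BDL with AAV-VEGFC and sham, with mean and standard deviation of 3 libraries. Hba1, Slc4a1 and Lrg1 lie above sham and Arc, Egr1 and Spry4 below sham in each ligated library of all 3 groups.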

How the data were processed

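Per the labels' protocols, RNA of flash-frozen brain was extracted with Trizol and made into libraries with a TruSeq RNA kit. Per the submitters' processing notes, FastQC, Trimmomatic 0.36, HISAT2 and featureCounts were used on the rn6 build. Raw counts by gene symbol, unscaled, were deposited in 1 table of 12 libraries, and 11 of 11 single-library files equalled its columns. Of 17337 rows 26 carry spreadsheet dates for names and were counted but not named. The sources used here do not say whether strand was counted, so genes that overlap or lie antisense cannot be told apart.

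The counts were scaled by TMM in edgeR 4.0.16 (R 4.3.3), 12612 genes were kept by filterByExpr, and the quasi-likelihood test was run on the 6 libraries. CPM used TMM-scaled totals, SE came from the fold change and the F statistic, and calls needed an adjusted p under 0.05. No 2 libraries of a group agreed within sampling noise (chi-square per degree of freedom 11.6 to 17.4). Bounds against a group at 0 use 3 counts over the group and cover counting error only. Columns left unused numbered 0.

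Genes named were those called with a mean of at least 1 CPM in 1 group and groups that did not overlap (the 20 largest changes each way, and the 10 smallest p each way at 10 CPM or more), called list members, the 3 smallest p of each list, and Glul, Gfap, Aqp4, Slc1a2, Aif1, Cldn5, Vegfc, Tspo, Th and Ttr. The text names part of these, a few are not reported here, and it says where a gene lies outside the rule. The comparison, its named genes and the 46 lists were chosen with earlier results of these data known, so no list count is independent evidence. Lists are described by counts and medians, without a set test.

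Alternatives were DESeq2 1.42.0 size factors, DESeq2's own test, limma 3.58.1 voom with quality weights, no filter, at least 1 CPM in 3 libraries, 1 model of 12 libraries, the replicate number as a block, robust shrinkage, and each library left out. Leaving out BDL 2 and sham 2 together was added after seeing the data. The edgeR test was checked on simulated data. It recovered 74.6% of genes changed 1.5-fold, 91% at 2-fold and 98.5% at 4-fold, and called 11 unchanged genes. Changes under 1.5-fold were not simulated, and 252 of the 332 called genes differed by less than that. Promoter windows are from RefSeq (GRCr8), and figures were drawn with matplotlib 3.10.9.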

Additional observations from a re-analysis of the deposited data

How the results depend on the processing

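Against 332 called genes (94 higher, 238 lower), DESeq2's own test called 960 (347 higher, 613 lower), 1 model of all 12 libraries 14 (12 higher, 2 lower), and the 4 libraries without BDL 2 and sham 2, a setting added after seeing the data, 69 (22 higher, 47 lower). With 1 library left out the calls numbered 45 to 304, with 21 to 69 higher and 24 to 238 lower. The cause was not tested, beyond there being fewer libraries in the fits that leave some out. DESeq2 size factors, voom, no filter, at least 1 CPM in 3 libraries and robust shrinkage each stayed within 1.5 times of all 3 counts. DESeq2's test raised the share of higher calls to 36.1% from 28.3%, and leaving out sham 3 to 46.7%. No called gene named in the report changed direction under any of the 15 alternatives. Th, which was not called (log2 fold change 0.28), was at -0.34 without BDL 2 and sham 2, and ran from -0.15 to 0.62 with 1 library left out.

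The replicate numbers did not pair the libraries: deviations from the group means of same-numbered libraries correlated at 0.000536, -0.0297 and 0.0284. With the replicate number as a block 134 genes passed (43 higher, 91 lower), of which 116 were among the 332.

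Depth of 41340987 to 51031918 reads per library leaves genes of few reads uncertain, since 3 reads stand for 0.0588 to 0.0726 CPM. With 3 libraries a group, the calls cover these libraries.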

Other observations

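The 3 BDL libraries differed among themselves in several lists. BDL 1 was the lowest of the 3 BDL libraries in 13 of 19 astrocyte markers, 18 of 24 reactive astrocyte genes, 22 of 30 endothelial genes and 13 of 19 homeostatic microglia markers, against 33.4% of all genes tested. BDL 2 was the lowest instead in 18 of 24 glutamate receptor genes, 23 of 35 synaptic structure genes and 18 of 19 striatal markers. Other neuronal lists differed, with BDL 2 lowest in 10 of 24 cortex and hippocampus markers (BDL 1 in another 10), 2 of 11 thalamus, hindbrain and cerebellum markers, 8 of 28 activity factors and 9 of 32 activity effectors. Summed glucocorticoid targets were 1211, 1449 and 1567 CPM in BDL 1 to 3 and 1402, 1357 and 1480 CPM in sham 1 to 3, with the spread over BDL libraries larger than over sham libraries in 22 of 25 genes, against 52.4% of all genes.

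Rows named for microRNA genes hold reads of the host transcripts or precursors, and 28 of 456 could be tested. Mir132, a microRNA gene induced by CREB in rodent neurons and named after its values were seen, had 0.439, 0.388 and 0.326 CPM in BDL 1 to 3 and 0.834, 0.707 and 0.51 CPM in sham 1 to 3, and did not pass (-0.83 ± 0.36, adjusted p = 0.252).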
